A study of Homo sapiens with 105 samples.

Results

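Free lipopolysaccharide (LPS) of Proteus mirabilis, added to the medium of Caco-2 cells, was compared with PBS by RNA-seq. The comparison rests on 8 libraries, 2 with LPS and 2 with PBS at each of 10 h and 24 h. Libraries were chosen by their labels for treatment and time, which name 16 libraries, and 8 of these were set aside because they came from lanes 2 to 4 of 1 flow cell, where the labelled time was in doubt. The series holds 66 libraries outside these lanes and 39 in them. Caco-2 is a line of human colon adenocarcinoma cells that behaves like absorptive epithelium in culture. The study treated these cells with bacterial vesicles or with RNA from the vesicles, and LPS served as the control for the endotoxin that outer membrane vesicles (OMVs) of P. mirabilis carry. Cells in 48-well plates received either LPS or PBS with fresh medium and no transfection reagent. The dose in the labels is 0.2 ng per µl, whereas the methods of the study give the same figure per ml, so the concentration behind these values is uncertain. LPS and OMVs were compared too, as were LPS in the medium and LPS transfected with a lipid reagent, whose control was 2 ng of a non-targeting siRNA transfected in the same way. Neither source places the replicates (numbered 2 to 5) in separate cultures. The p-values measure only a spread between libraries, and this spread is shared over all groups of the 66 libraries outside those lanes. With 2 libraries in each group of the main comparison, it is not the spread of the LPS and PBS libraries alone.

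LPS is the outer leaflet lipid of Gram-negative bacteria. Cells sense it outside through TLR4, which binds it together with the small protein MD-2 (gene LY96) after LBP and CD14 have handed it over, and the adaptors MYD88 and TICAM1 then carry the signal to NF-κB and to interferon genes. LPS that reaches the cytosol is bound by CASP4. Gut epithelium is known to keep this pathway low and to dampen it with inhibitors such as TOLLIP, SIGIRR and TNFAIP3, and the alkaline phosphatase ALPI removes phosphate from lipid A.

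Total counts of the 8 libraries ran from 2476570 (PBS at 10 h, replicate 2) to 8558755 (LPS at 24 h, replicate 2), against 632659 to 8558755 in the series. By the genes most variable in the series, each of the 8 libraries lay nearest to other groups of its own time and replicate number, and of the 8 set aside 2 lay nearest to their own time and 1 to its own replicate number. The 8 libraries were all of replicates 2 and 3, and those set aside all of replicates 4 and 5. Fewer libraries of replicates 4 and 5 were kept to compare with, so these counts are not on equal terms. At 10 h all 4 libraries came from lanes 1 and 2 of flow cell 2, and at 24 h all 4 came from lane 1 of flow cell 1. All 8 epithelial markers examined were measured. EPCAM (504 to 577 CPM, counts scaled to 1e6 per library), VIL1 (483 to 549 CPM) and CDH17 (521 to 692 CPM) were high in every library, and the enterocyte keratin KRT20 was low, at 0.158 to 6.14 CPM. Of 15 markers of other cells, PTPRC, COL1A2 and DEFA5 had no count in the 8 libraries, and COL1A1 and LGR5 were the highest, at 21.3 to 54.4 CPM and 10.1 to 76.4 CPM.

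The receptor complex for LPS was at the edge of detection. TLR4 (ENSG00000136869.16; chromosome 9, 117704175 to 117724735, GRCh38) had 0 counts in all 8 libraries, which allows a level of up to 0.0635 CPM over their 47271836 counts. LY96 also had 0 counts in the 8 libraries. Over all libraries of the series TLR4 and LY96 held 7 counts each, in 6 and 7 libraries. LBP, which extracts LPS from membranes, had 4 counts in the 8 libraries, and TICAM2, the adaptor that links TLR4 to TICAM1, had 12. These limits cover counting error only.

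Other genes of the pathway were measured well enough to test. The co-receptor CD14 lay at 5.94 and 6.40 CPM with PBS and 6.08 and 7.33 CPM with LPS at 10 h. At 24 h it lay at 4.10 and 5.24 CPM with PBS and 3.01 and 5.95 CPM with LPS, so the groups overlapped at both times. In such bulk samples fewer expressing cells and less RNA per cell cannot be told apart. MYD88 was at 34.0 to 41.03 CPM in all 8 libraries, with a log2 fold change of -0.08 (95% interval -0.26 to 0.11) over both times. Scaled by exon length, the adaptor kinase IRAK1 was the highest of the sensing genes, at 41.7 CPM per kb, against 8.95 CPM per kb for MYD88, 3.46 for CASP4 and 3.34 for CD14. ALPI lay at 41.5 to 48.4 CPM in the 4 libraries of replicate 2 and at 16.8 to 20.8 CPM in the 4 of replicate 3, with a log2 LPS effect of 0.01 ± 0.10 (SE). Of 29 genes on the LPS sensing list 18 could be tested, and all 18 had 95% intervals over both times that stayed within 1.5-fold. The 11 others had 0 to 21 counts each in the 8 libraries. They include CASP5 and GBP1 of cytosolic LPS sensing, with 17 counts each, and the inhibitor IRAK3 with 0.

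Across the transcriptome no gene passed the test for LPS against PBS. The edgeR quasi-likelihood test over 18775 genes called 0 genes (0%) at an adjusted p under 0.05 in the effect over both times, at 10 h and at 24 h, and DESeq2 and limma voom also called 0. At an unadjusted p under 0.05 the effect over both times had 261 genes higher with LPS (1.39%) and 274 lower (1.46%). At 10 h there were 378 higher (2.01%) and 346 lower (1.84%), and at 24 h 211 higher (1.12%) and 240 lower (1.28%). The smallest adjusted p was 0.9998 at 10 h.

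The intervals say how large a change these libraries leave room for, given the spread shared over the 66 libraries of the fit. Over both times the median gene had a 95% interval of ± 0.27 on the log2 scale, and 16143 genes (86.0%) had intervals that stayed within 2-fold in either direction. Among the 10685 genes with a mean of 10 CPM or more, 10668 (99.8%) stayed within 2-fold and 10580 (99%) within 1.5-fold. At the single times 99.4% (10 h) and 99.7% (24 h) of these genes stayed within 2-fold. Genes at low level were measured less tightly, as the plot of effect against level shows. A change of the size that the OMVs gave in C3 would lie outside the interval of C3 with LPS, and the same holds for PI3. This is not so for every gene at low level.

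**Figure D1:**
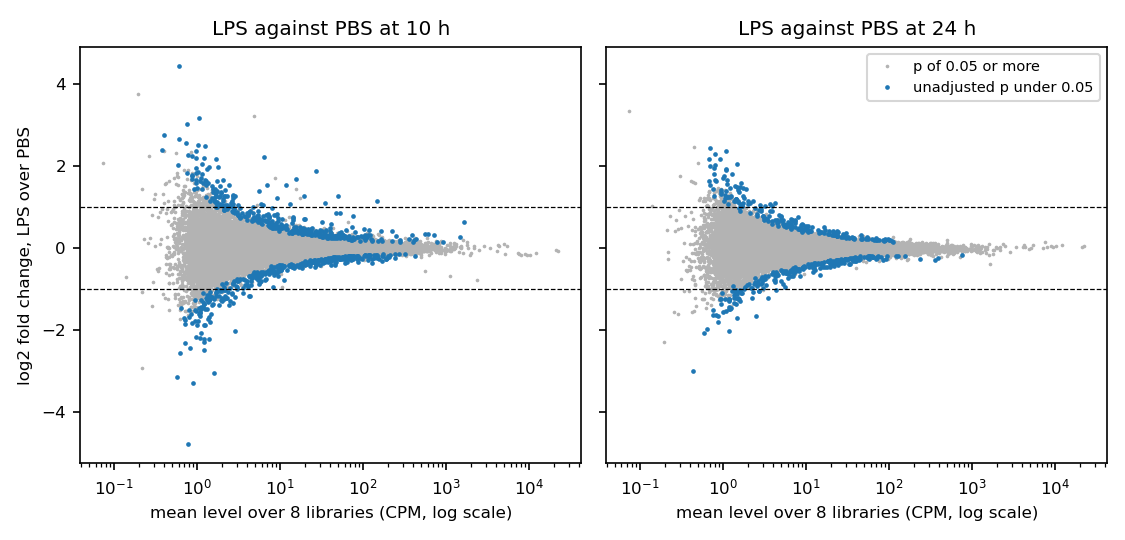
Log2 fold change of LPS over PBS (y axis) against the mean level in the 8 libraries in CPM (x axis, log scale) at 10 h and 24 h, 1 point per gene tested with a count in these libraries, blue where the unadjusted p was under 0.05 and with 2-fold marked by dashed lines. The cloud narrows with level, and none of the 18775 genes passed at an adjusted p under 0.05.

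NF-κB target genes, the usual readout of TLR4, were measured well, and none passed the test. NFKBIA, the inhibitor that NF-κB itself induces, lay at 31.4 and 28.9 CPM with PBS and 32.8 and 30.7 CPM with LPS at 10 h. At 24 h it lay at 23.3 and 22.4 CPM with PBS and 25.5 and 27.1 CPM with LPS. It was higher with LPS in 4 of 4 pairs of the same time and replicate number, by 0.15 ± 0.11 (log2, SE, unadjusted p = 0.181). TNFAIP3, the ubiquitin-editing brake on NF-κB, lay at 42.02 and 39.5 CPM with PBS against 49.7 and 41.6 CPM with LPS at 10 h, and at 35.9 and 29.4 CPM against 30.3 and 35.1 CPM at 24 h. Its effect over both times was 0.07 (95% interval -0.11 to 0.24). SOD2, the mitochondrial superoxide dismutase, had an interval of -0.09 to 0.12, the adhesion molecule ICAM1 one of -0.24 to 0.15 and the complement component C3 one of -0.35 to 0.26. Of 33 genes on the NF-κB and feedback list 32 were tested, with a median of 0.02 against -0.004 over all genes. At an unadjusted p under 0.05 over both times there was 1 of these 32, against 1.39% higher and 1.46% lower over all genes, a share near that background. This was IKBKE, a kinase upstream of interferon regulatory factors. It lay at 13.2 and 15.4 CPM with PBS and 21.7 and 18.1 CPM with LPS at 10 h, and at 12.1 and 13.3 CPM against 14.7 and 15.6 CPM at 24 h. Its effect was 0.34 ± 0.13 (adjusted p = 1), and it was named for its small p. At 24 h the genes with the smallest p included MAP3K14, the NF-κB-inducing kinase. It lay at 15.9 and 14.5 CPM with PBS and 9.73 and 9.79 CPM with LPS, a log2 difference of -0.65 ± 0.19 that did not pass (adjusted p = 1), and at 10 h its groups overlapped.

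Several inflammatory mediators had few or no counts in either group. TNF and CXCL5 had 0 counts in the 8 libraries, IL6 had 3, CXCL8 had 8 and IL1B had 31. IL6, CXCL8 and IL1B did not enter the test. CXCL2, a neutrophil attractant, was the 1 chemokine of the fixed genes with an unadjusted p under 0.05 and was lower with LPS. It lay at 4.24 and 4.17 CPM with PBS and 3.26 and 2.73 CPM with LPS at 10 h, and at 5.198 and 3.22 CPM against 3.13 and 2.88 CPM at 24 h, a log2 effect of -0.48 ± 0.24 over both times (unadjusted p = 0.0483). CXCL10 had 15 counts and CCL20 had 22, and their intervals of -0.71 to 3.66 and -1.11 to 1.83 do not exclude a change of several fold at this depth. CCL28, a mucosal chemokine of epithelium, was at 6.79 and 8.21 CPM with PBS and 11.7 and 10.4 CPM with LPS at 10 h, and at 24 h its effect was 0.15 ± 0.20. In the chemokine and cytokine list 17 of 37 genes were tested, of which 8 had intervals within 2-fold. At an unadjusted p under 0.05 over both times 1 of the 17 was higher and 1 lower, against 1.39% and 1.46% over all genes. At 10 h 2 of the 17 were higher and 0 lower, against 2.01% and 1.84%. The highest log2 effect of the list at 10 h, 4.44, was also the highest of all genes tested and did not pass. CXCL1, CXCL5, CXCL10 and CCL20 passed the count filter only through groups other than LPS and PBS.

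No interferon-induced or antimicrobial gene passed the test. Of 49 genes on the interferon list 31 were tested, none had an unadjusted p under 0.05 over both times, and their median was 0.02. MX1, an antiviral GTPase, lay at 9.64 to 16.3 CPM in the 8 libraries with an effect of -0.10 ± 0.14, and ISG15 at 3.41 to 6.45 CPM with -0.17 ± 0.21. The RNA sensor IFIH1 had the smallest p of the list. At 10 h it lay at 3.82 and 4.59 CPM with PBS and 9.50 and 5.45 CPM with LPS, and at 24 h at 8.98 and 5.44 CPM against 8.57 and 5.95 CPM. PI3 (elafin, a secreted protease inhibitor) lay at 11.6 to 24.5 CPM with an effect of -0.11 ± 0.14, and LCN2, which starves bacteria of iron, had 0 counts. DUOX2, the epithelial hydrogen peroxide source, followed the replicate number, at 0.158 to 0.742 CPM in replicate 2 and 2.37 to 4.43 CPM in replicate 3, and its effect of 0.42 ± 0.48 did not pass.

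**Figure D2:**
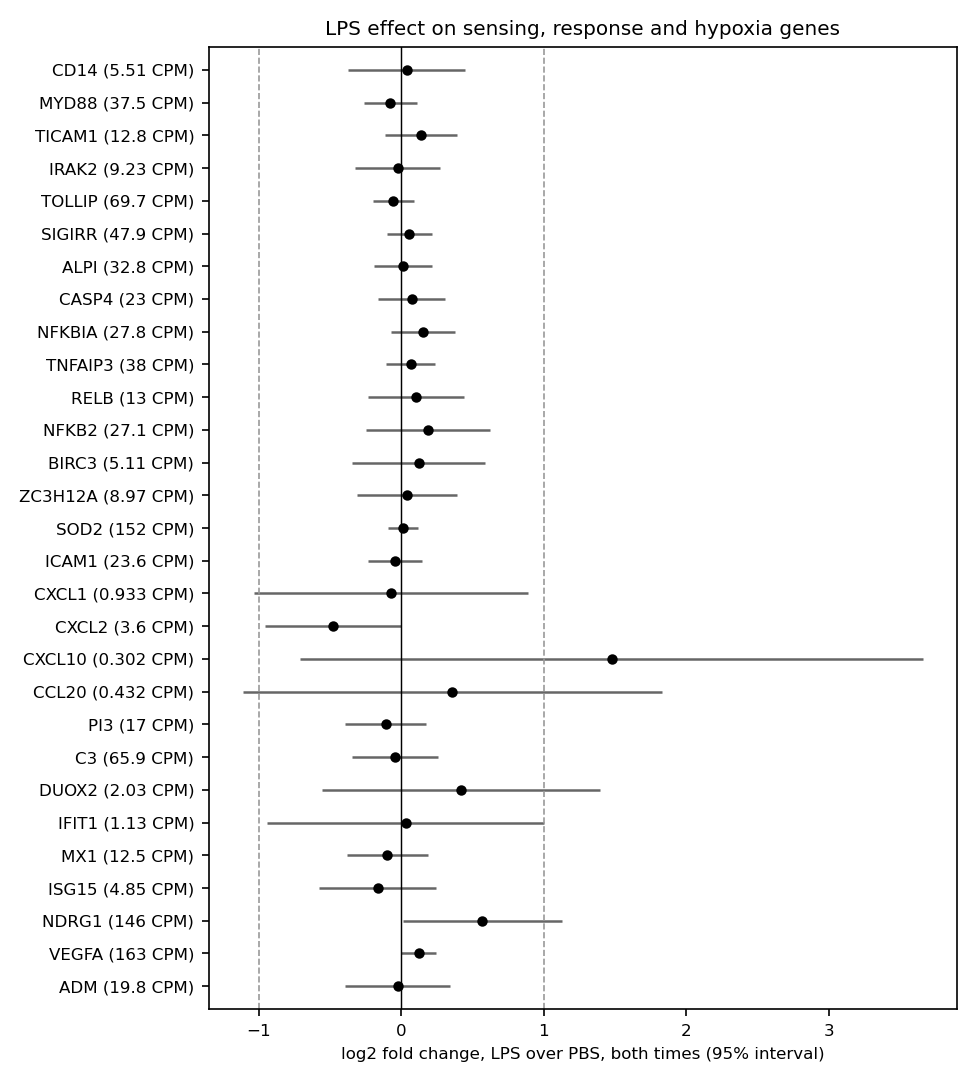
Log2 fold change of LPS over PBS over both times (x axis, points) with 95% intervals (lines) for the 29 fixed genes that were tested and had a count in the 8 libraries, with the mean level in CPM beside each name and 2-fold marked by dashed lines. SOD2 has the narrow interval of -0.09 to 0.12, and CXCL10 with 15 counts the wide one of -0.71 to 3.66.

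The same fit separated the vesicles from LPS in several of these genes. The OMVs are the particles whose endotoxin the LPS stands for, and 3 libraries with OMVs at 10 h and 2 at 24 h were kept. Against LPS, 597 genes (3.18%) passed at 10 h and 29 (0.154%) at 24 h. The 597 include genes that did not pass between OMVs and PBS at 10 h, such as HAVCR1 (adjusted p = 0.133), CCNG2 (0.616) and CLIC3 (0.830). TNFAIP3, SOD2, PI3 and C3 also passed between OMVs and PBS at 10 h. The count is thus not one of OMV effects against PBS. C3 lay at 225 to 254 CPM with OMVs at 10 h, against 59.1 and 87.4 CPM with LPS, a log2 difference of 1.65 ± 0.17 (adjusted p = 4.48e-08). PI3 lay at 64.5 to 101.1 CPM with OMVs and 15.0 and 21.7 CPM with LPS, a difference of 2.12 ± 0.15 (adjusted p = 5.4e-17). TNFAIP3 was at 72.4 to 80.2 CPM with OMVs at 10 h and differed from LPS by 0.70 ± 0.10 (adjusted p = 4.37e-07), and at 24 h by 1.27 ± 0.12 (adjusted p = 6.23e-14). SOD2 differed at 10 h by 0.82 ± 0.07 (adjusted p = 3.63e-16), and at 24 h the difference of 0.11 ± 0.08 did not pass. NFKBIA, RELB, BIRC3 and ZC3H12A were higher with OMVs than with LPS at 24 h, by 0.72 to 1.45 on the log2 scale. CXCL5, a neutrophil chemokine, had no count with LPS or PBS and lay at 4.51 to 8.07 CPM with OMVs at 10 h, and CXCL10 lay at 2.52 to 4.09 CPM with OMVs at 10 h. CXCL1 lay at 4.90 and 5.49 CPM with OMVs at 24 h. As these genes entered the test through groups such as the OMVs, their differences are given as levels only. Set against PBS, the OMV effects on C3 were 1.68 at 10 h and 1.98 at 24 h, beside LPS effects of 0.03 and -0.11, and both use the same PBS libraries.

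**Figure D3:**
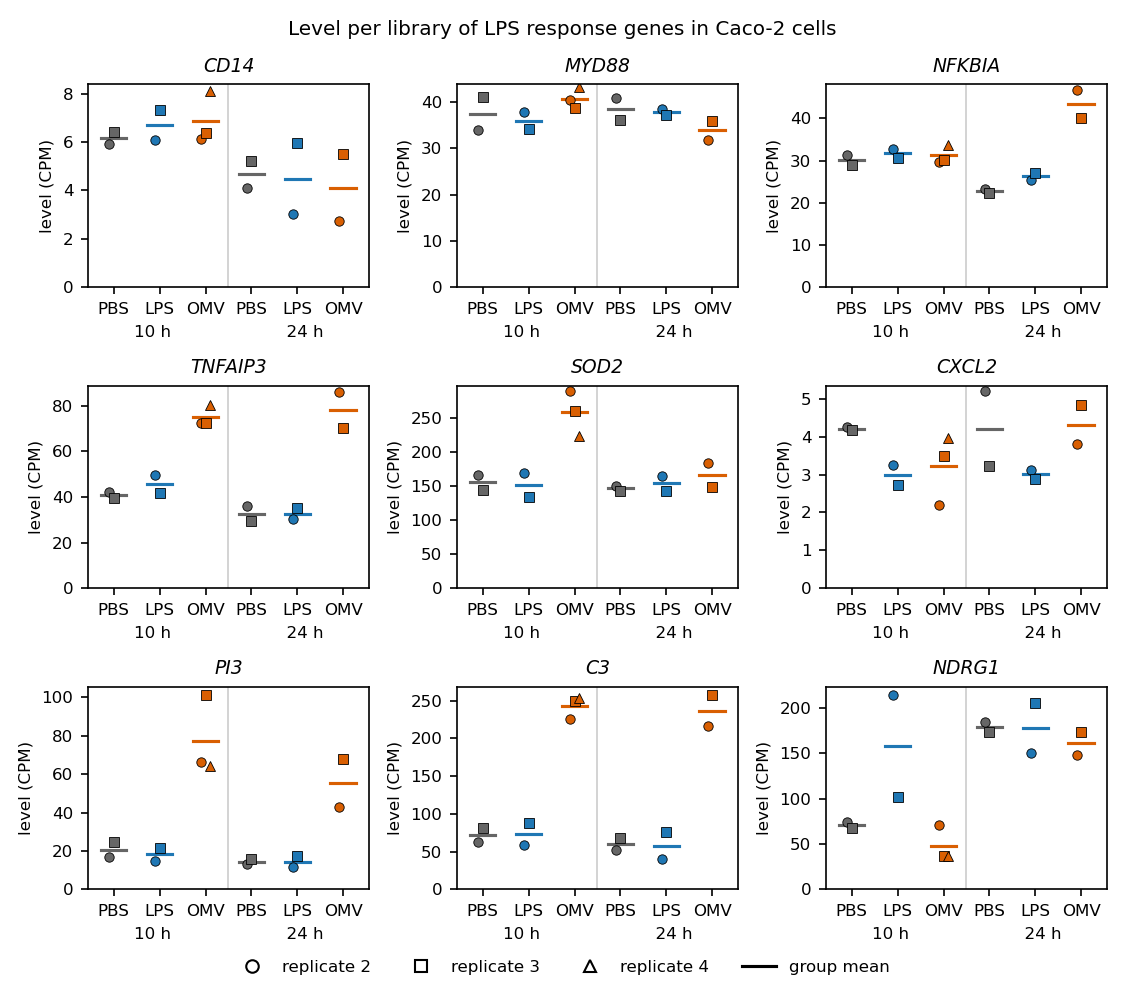
Level in CPM (y axis) of 9 genes in each library with PBS, LPS or OMVs at 10 h and 24 h (x axis), with the symbol giving the replicate number and the bar the group mean. PI3 and C3 overlap between PBS and LPS at both times and lie apart with OMVs, and NDRG1 is higher with LPS than with PBS in both replicates at 10 h.

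Of the lists examined, hypoxia and glycolysis held the largest share of genes at an unadjusted p under 0.05 at 10 h, and no member passed the test. Of 45 genes listed 43 were tested, and 14 of these (32.6%) were higher with LPS at 10 h at an unadjusted p under 0.05, against the 2.01% over all genes. The list was chosen with earlier results of these data known, and its genes are read in the same 2 pairs. These shares are thus no independent test of the list. The median of the 43 genes was 0.30 at 10 h and -0.10 at 24 h. At 10 h it was 0.12 without replicate 2 of LPS and 0.50 without replicate 3 of LPS. At 24 h it was 0.02 without replicate 2 of LPS and 0.01 without replicate 2 of PBS. With the lanes left aside included it was 0.06 at 10 h and 0.43 at 24 h. NDRG1, a stress gene induced by low oxygen, lay at 74.3 and 67.7 CPM with PBS and 214 and 101.4 CPM with LPS at 10 h, a log2 difference of 1.15 ± 0.41 (unadjusted p = 0.00846, adjusted p = 0.9998). At 24 h it lay at 184 and 173 CPM with PBS and 151 and 205 CPM with LPS, and the groups overlapped. BNIP3, which takes part in removing mitochondria, lay at 16.1 and 13.8 CPM with PBS and 40.2 and 22.5 CPM with LPS at 10 h, and at 71.0 and 32.8 CPM against 40.8 and 41.7 CPM at 24 h. VEGFA, the vascular growth factor, was at 134 and 151 CPM against 159 and 173 CPM at 10 h, an effect of 0.22 ± 0.09. KDM3A, a histone demethylase, and MXI1, an antagonist of MYC, had effects of 0.45 ± 0.18 and 0.73 ± 0.32 at 10 h. The 1 gene of the fixed list that passed as lower with OMVs than with LPS at 10 h was NDRG1. It lay at 36.8 to 70.9 CPM with OMVs, a log2 difference from LPS of -1.60 ± 0.37 (adjusted p = 0.00913). Between OMVs and PBS at 10 h, 0 of the 30 fixed genes tested passed as lower, NDRG1 included. CA9, a classic marker of hypoxia, had 4 counts in all, and ADM had an effect of 0.16 ± 0.26.

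The 2 pairs of libraries at each time did not weigh equally in this. The median of the hypoxia list was 0.39 in the pair of replicate 2 and 0.19 in that of replicate 3 at 10 h, and -0.31 and 0.13 at 24 h. Over all genes tested the medians of the same pairs were 0.0006 and -0.007 at 10 h, and -0.003 and -0.007 at 24 h. Of the 43 genes 36 were higher with LPS in both pairs at 10 h, and at 24 h 39 were lower in replicate 2 and 4 were lower in replicate 3. The mean level with PBS was higher at 24 h than at 10 h in 36 of the 43 genes, and the libraries of the 2 times lay on different flow cells. The matching shares of all genes were not counted. In the fit 41 of the 43 genes had an effect above 0 at 10 h and 12 at 24 h, against 9036 and 9013 of all 18775 genes. On an axis of time drawn from the other groups (0 at their 10 h mean, 1 at their 24 h mean) the libraries with LPS at 10 h stood at 0.253 and 0.527, and those with PBS at 0.178 and 0.368. The 10 other libraries of the same time and replicate number reached up to 0.116 (replicate 2) and 0.322 (replicate 3), so all 4 stood beyond them on the side of 24 h, the LPS library further than the PBS library in both replicates. At 24 h they stood at 1.12 and 1.15 with LPS and 1.19 and 1.02 with PBS, where the others reached 1.16 and 1.11. The part of these positions in the hypoxia values was not tested.

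No sterol synthesis gene passed the test. All 30 listed genes were tested, with a median of 0.16 at 10 h and -0.14 at 24 h. Without replicate 2 of LPS the 10 h median was 0.07, and without replicate 2 of PBS the 24 h median was -0.02. With the lanes left aside included the medians were 0.03 and 0.31. CYP51A1, the lanosterol demethylase, lay at 37.4 and 29.2 CPM with PBS and 48.2 and 35.6 CPM with LPS at 10 h (0.36 ± 0.14, adjusted p = 0.9998), and at 24 h the difference was -0.07 ± 0.13. In replicate 2 at 24 h all 30 genes were lower with LPS, with a median of -0.23, and in replicate 3 16 of 30 were lower, with a median of -0.003. The medians over all genes tested were -0.003 and -0.007 in these pairs, and the share of all genes that were lower in each pair was not counted. In the fit 5 of the 30 genes had an effect above 0 at 24 h, against 9013 of all 18775 genes.

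**Figure D4:**
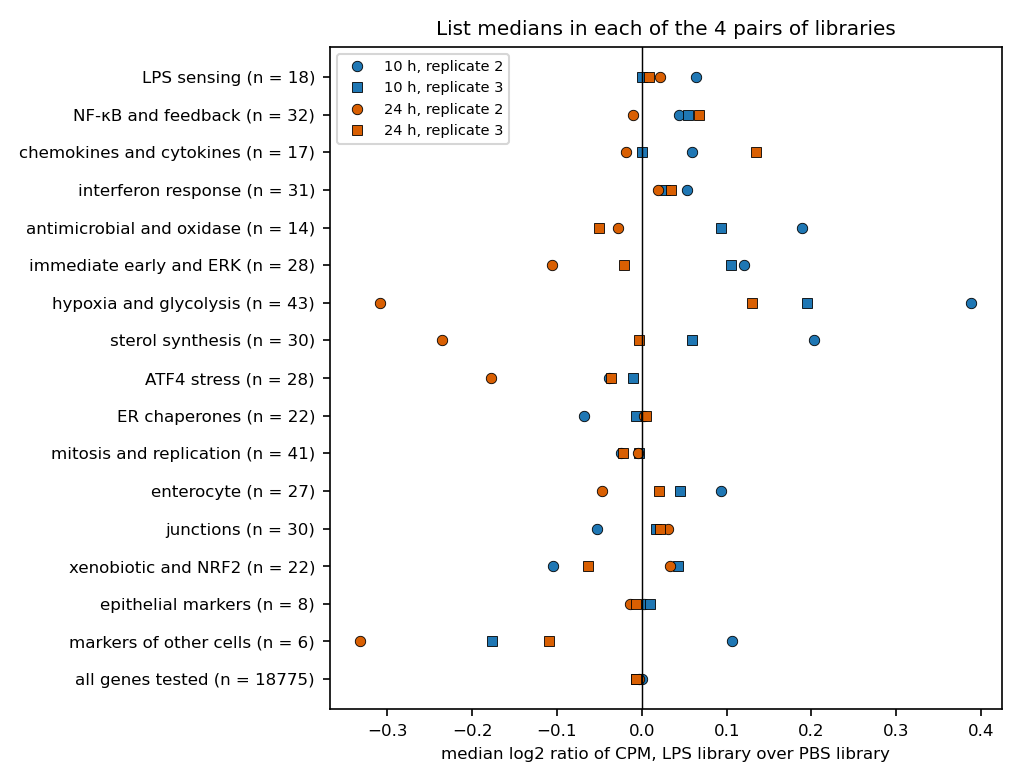
Median log2 ratio of LPS over PBS (x axis) of the tested members of each gene list (y axis, n in brackets), 1 point for each pair of libraries of the same time (colour) and replicate number (symbol). Hypoxia and glycolysis genes range from -0.31 to 0.39 between pairs, and the LPS sensing list stays between 0 and 0.06.

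The difference of the LPS effect between 24 h and 10 h was tested for every gene and 0 genes (0%) passed. At an unadjusted p under 0.05 it was higher at 24 h for 302 genes (1.61%) and lower for 342 (1.82%), and DESeq2 and limma voom called 0. In the hypoxia list 11 of 43 genes (25.6%) and in the sterol list 11 of 30 (36.7%) were on the lower side. Both lists were chosen with earlier results of these data known. HAVCR1 (chromosome 5, 157026742 to 157069396), a membrane receptor for phosphatidylserine, came nearest. It lay at 250 and 244 CPM with PBS and 308 and 304 CPM with LPS at 10 h, and at 594 and 508 CPM with PBS and 452 and 488 CPM with LPS at 24 h. The order of the groups changed between the times, a difference of -0.54 ± 0.12 (adjusted p = 0.849). It passed with a separate replicate block for each time (adjusted p = 0.00829), with flow cell and lane as covariates (0.0136) and without the count filter (0.0407).

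Genes with the smallest p over both times were on none of the lists and did not pass. CCNG2 (chromosome 4, 77157207 to 77433388), an unusual cyclin of quiescent cells, lay at 11.5 and 12.2 CPM with PBS and 21.2 and 15.2 CPM with LPS at 10 h, and at 18.4 and 24.6 CPM against 24.2 and 28.02 CPM at 24 h. Its effect was 0.50 ± 0.13 (unadjusted p = 0.000305), higher in 4 of 4 pairs, and without replicate 3 of LPS at 10 h it was the 1 gene called (adjusted p = 0.0272). WSB1, a ubiquitin ligase subunit, was at 0.24 ± 0.07, and UTP15, of the ribosomal RNA processing complex, at -0.36 ± 0.10, lower in 4 of 4 pairs. The histone genes H2BC7, H2BC11 and H2BC6 had effects of -0.25, -0.30 and -0.23. They are near copies of each other, and the study set a minimum mapping quality in counting. Reads that fit more than 1 of them may therefore be missing from their counts. TRAF3IP3, an adaptor that binds TRAF3, lay at 5.94 and 5.98 CPM with PBS and 4.60 and 3.24 CPM with LPS at 10 h, and at 8.35 and 6.44 CPM against 4.52 and 3.46 CPM at 24 h. Its effect of -0.74 ± 0.20 had an unadjusted p of 0.00027. The antisense genes SBNO1-AS1 (0.55 ± 0.16) and PTCHD1-AS (-1.39 ± 0.36) cannot be told from genes of the other strand wherever these overlap them, since no strand setting of the counting is given. Whether such genes overlap them was not examined. Of all genes 979 were higher and 1215 lower with LPS in all 4 pairs.

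Lists for the epithelium itself gave no member past the test. Junction genes (30 of 30 tested) had a median of 0.01 over both times and 29 intervals within 1.5-fold. Mitosis and replication genes (41 of 41) had a median of -0.01, and CCNE1, the cyclin of the G1 to S transition, had the smallest p, with -0.32 ± 0.12. Enterocyte genes (27 of 33) had a median of 0.02, and APOA1, the main apolipoprotein of HDL, had 0.12 ± 0.08. ER chaperones (22 of 22) had a median of -0.003 and 22 intervals within 1.5-fold. ATF4 stress genes (28 of 30) had a median of -0.06, with PSAT1 of serine synthesis at -0.23 ± 0.11, and xenobiotic and NRF2 genes (22 of 29) one of -0.01.

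Transfected LPS was set against its own control, a non-targeting siRNA, and the effects of the 2 routes were compared. The labels give the transfected dose as 1 ng per µl, and the methods of the study again give the figure per ml. The study states a smaller volume for transfected LPS, so doses differ as well as routes. By these volumes the total amount of LPS was larger in the medium if both figures share a unit, and the unit is uncertain. Between the effects 0 genes (0%) differed at an adjusted p under 0.05, with 255 (1.36%) higher and 341 (1.82%) lower for LPS in the medium at an unadjusted p under 0.05, and DESeq2 and limma voom called 0. The smallest adjusted p was 0.294, for PTCHD1-AS. The NF-κB and feedback list had a median effect of 0.02 for LPS in the medium and -0.03 for transfected LPS, and the hypoxia list 0.14 and 0.01.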

How the data were processed

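Libraries of rRNA-depleted total RNA were sequenced paired-end. Per the labels, the authors used STAR on GRCh38 and featureCounts for gene counts, after duplicates had been handled with sambamba, and deposited raw counts for 63241 genes in 105 libraries. Symbols matched for 62666 genes. Lanes 2 to 4 of flow cell 1 (39 libraries) were left aside. All 66 remaining libraries entered 1 fit with edgeR 4.0.16 (R 4.3.3): filterByExpr on the groups (18775 genes), TMM, a dispersion trend, the robust quasi-likelihood F test, a coefficient per group and the replicate number as a block. Adjusted p-values are Benjamini-Hochberg over all genes tested, two-sided, threshold 0.05. Every adjusted p is from this test unless another tool is named. SE and 95% intervals come from the fit, and levels are CPM with TMM-scaled library sizes. Ratios of single pairs used CPM + 0.5, and positions in time used the 1500 most variable genes. The scripts were tested on simulated data.

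The members and the gene lists were chosen with earlier results of these data known. Named genes were 41 fixed ones (30 tested), genes past the test, otherwise the 10 of smallest unadjusted p in each direction, and 2 per list. Coordinates and exon lengths are of GENCODE v44 (GRCh38). Depth was 2476570 to 8558755 counts in the 8 libraries, which limits low genes. Alternatives included DESeq2 1.42.0 and limma voom 3.58.1.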

Additional observations from a re-analysis of the deposited data

Results flagged for a closer look

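In the 4 groups with all 4 labelled libraries, total counts and the levels of the 30 fixed genes tested were examined for a sample far from the others, 124 sets in all, of which 8 were picked out. For independent normal values chance picks out about 1 in 20 such sets. That rate does not hold for genes with hardly any counts, such as CXCL5, and the sets include libraries whose labelled time was in doubt. In replicate 3, DUOX2 was at 4.40 CPM with LPS at 10 h (others 0.483 to 0.952) and at 4.0 CPM with PBS at 24 h (others 0.157 to 0.494). CXCL1 was at 0.420 CPM with PBS at 10 h in replicate 2 (others 1.58 to 1.75) and at 3.43 CPM with LPS at 24 h in replicate 4 (others 0.919 to 1.08), a library left aside. BIRC3 was at 5.76 CPM with LPS at 10 h in replicate 3 (others 8.39 to 8.70), and ZC3H12A at 7.84 CPM with PBS at 24 h in replicate 2 (others 11.2 to 11.7). In libraries left aside, CXCL5 was at 0.165 CPM with PBS at 24 h (0 in the others) and MYD88 at 29.7 CPM with LPS at 24 h (others 37.0 to 38.2).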

How the results depend on the processing

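The effect of LPS over both times, at 10 h and at 24 h stayed at 0 genes with the lanes left aside included, no replicate block, flow cell and lane as covariates, DESeq2, limma voom, RLE size factors, no count filter and no robust option. Leaving out each library in turn gave 0 to 1 genes over both times and 0 in each other comparison. The difference between 24 h and 10 h gave 1 gene (HAVCR1) with the replicate block within each time, with flow cell and lane, and without the count filter. With the libraries of the groups compared only and the block within each time, an alternative chosen after seeing the data, 2 genes passed at 10 h (AQP10 and INSIG1, named after their values were seen) and 3 in the difference (with HAVCR1). The cause was not tested. With no replicate block 0 genes passed in every comparison. Replicates paired in their deviations at r = 0.476 (10 h) and 0.584 (24 h), but 2 pairs mirror each other and the labels give only a number. Of 4360 values of named genes under alternatives 4089 stayed within 1 SE and 190 changed sign. Of 912 list medians 806 stayed within the spread between pairs and 106 moved. The lanes left aside moved most: with them included 111 of 220 values of named genes moved and 54 changed sign, 28 of 48 list medians moved and 19 changed sign, and the unadjusted count at 24 h went from 451 to 2569. With 2 libraries a group, low genes such as CXCL10 and CCL20 are limited by depth.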
